A study of Mus musculus with 12 samples.

Results

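RNA that came down with an antibody against Ythdf1 in the newborn mouse retina was compared with the RNA of the same tissue before the precipitation. The comparison rests on 4 of the 12 libraries of the study, chosen by their labels: retina input replicates 1 and 2, and retina Ythdf1 immunoprecipitate (IP) replicates 1 and 2. All come from wild type mice of strain C57BL/6 at postnatal day 0. The retinas were dissociated and carried through an RNA immunoprecipitation kit (EZ-Magna RIP), and stranded TruSeq libraries were made from 100 ng of RNA each. The inputs had no antibody, and the IPs a Proteintech antibody against Ythdf1. A pair of retina Ythdf2 IPs of the same strain, age and protocol was fitted beside them, so that 6 libraries shared 1 estimate of the spread. No library with an unrelated antibody was analysed here, and the labels do not say whether a replicate is an animal, a litter or a pool, so the p-values measure the spread between these libraries only.

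Ythdf1 is a cytoplasmic protein whose YTH domain binds N6-methyladenosine (m6A), the most common internal modification of mRNA. The methyl group is written co-transcriptionally by a complex built around Mettl3 and Mettl14, mostly near the stop codon and in long exons, and often within the sequence GGACT. Ythdf1 has been linked to translation of its bound mRNAs and Ythdf2 to their deadenylation and decay, and in developing neurons both have been studied for axon and dendrite growth. The retina at birth holds dividing progenitors beside ganglion cells, amacrine and horizontal cells and the first photoreceptor precursors.

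The libraries held 34033506 to 40515980 counts, but genes on ribosomal RNA loci took 55.8% and 55.3% of the input counts and 88.6% and 88.5% of the Ythdf1 IP counts, and mitochondrial ribosomal RNA a further 17.3% and 16.7% of the inputs and 0.377% and 0.408% of the IPs. After these genes were left out, 10618151 and 10115037 counts remained in the inputs and 4458877 and 3755314 in the IPs, so that 1 count equals 0.154 to 0.199 normalised CPM (counts scaled to a common library size) in these 4 libraries. The 2 inputs differed from each other more than the 2 IPs did. Across 12413 nuclear protein-coding genes the Spearman correlation between replicates was 0.872 for the inputs and 0.974 for the Ythdf1 IPs, and the standard deviation of the log2 difference between replicates was 1.01 and 0.58. The labelled tissue was checked against marker genes. All 21 ganglion cell markers and all 22 progenitor markers passed the filter on low counts. Of 20 lens markers 14 were at 0 in all 6 retina libraries. Of 14 cortical neuron markers 2, Emx1 and Neurod6, were at 0, but 10 passed the filter. Those 10 had a summed level of 773 and 658 normalised CPM in the inputs. Of 14 markers of pigment epithelium and melanocytes 3, among them Rpe65, were at 0 and 3 passed. The summed level of the progenitor markers was 10010 and 7478 normalised CPM in the inputs and 4143 and 4248 in the IPs.

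GGACT stands 4 to 157 bases from the stop codon in 5 of the 10 transcripts with the largest rises in the Ythdf1 IP, and these windows are printed to show the motif in its context. In the other 5 transcripts the nearest copy lies 326 to 1568 bases away. The search covered the sense strand of 1 annotated transcript per gene on GRCm38, and the position is the distance from the first base of the stop codon to the nearest GGACT. Each window has 10 bases on either side, runs 5′ to 3′ along the transcript, and has the motif in capitals. Tmem121 has it 38 bases away in the 3′ UTR (chr12:113189146-113189170, plus strand), Rab43 145 bases away in the coding sequence (chr6:87792723-87792747, minus strand), Zfp954 157 bases away in the 3′ UTR (chr7:7115124-7115148, minus strand), Slc35e4 154 bases away in the 3′ UTR (chr11:3907385-3907409, minus strand) and Bid 4 bases away, across the end of the coding sequence, in a window split by an intron (chr6:120894273-120895623, minus strand).
Tmem121: cacagacgctGGACTaactgcgcgc
Rab43: cctccgcaaaGGACTccagcaatgt
Zfp954: agcggtcactGGACTaggatgcatc
Slc35e4: tacacaccagGGACTttgagagaga
Bid: gaaacgagatGGACTgaggagcccg
At least 1 GGACT was present anywhere in 92.6% of all 12413 nuclear protein-coding transcripts, and a match is not evidence of methylation. The share of all transcripts with a GGACT as near to the stop codon was not computed, so 5 of 10 is no measure of enrichment.

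Of 14334 genes tested, 2206 (15.4%) were higher and 3207 (22.4%) lower in the Ythdf1 IP than in the input at an adjusted p under 0.05 (edgeR's quasi-likelihood test, Benjamini-Hochberg over all genes). Both IPs lay above both inputs for 2206 of the genes called higher, and below both for 3204 of those called lower. Such a separation thus goes with nearly every call. Where it is given below for a called gene, it describes the values and is no added support. A change of at least 2-fold was found for 1954 of the higher and 3083 of the lower genes, and of at least 16-fold for 39 and 322. The median log2 fold change of all genes was −0.18. The split between higher and lower depends on the scaling: when scaled by library totals and not by TMM, a trimmed mean of gene-wise ratios, the median moved to 1.39 and 7538 genes were called higher and 844 lower, 89.9% of the calls against 40.8%. Fold changes below are therefore relative to the bulk of genes, and a level in the IP is a share of recovered RNA. The split was also near even with TMM kept and only the 4 libraries of the comparison fitted (2233 higher and 2228 lower, median 0.02). With limma on the deposited FPKM it was 2725 and 2558. The counts also rest on both IPs: without Ythdf1 IP replicate 1 there were 748 higher and 1454 lower calls, and without replicate 2 there were 810 and 1535.

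The transcripts with the largest rises were mostly scarce in the input. Tmem121, which encodes a multi-pass membrane protein (chr12:113185930-113189523, plus strand), had 3 and 14 counts in the inputs and 314 and 147 in the IPs. That is 0.598 and 2.72 normalised CPM against 48.3 and 26.9, a log2 fold change of 4.48 ± 0.63 (SE, n = 2 libraries per group, edgeR adjusted p = 0.0011), and both IPs lay far above both inputs. Rab43, a small GTPase of Golgi trafficking (chr6:87788853-87812164, minus strand), was at 1.20 and 2.92 CPM in the inputs and at 28.3 and 27.7 in the IPs (log2 fold change 3.75 ± 0.51, edgeR adjusted p = 0.0010). Its 2 IPs were close together and the groups did not overlap. Slc35e4, a member of the solute carrier family of nucleotide-sugar transporters and their relatives, went from 1.8 and 1.36 CPM to 17.7 and 22.4 (log2 3.64 ± 0.49). Zfp954, a zinc finger gene, went from 2.79 and 1.17 to 23.7 and 26.8 (log2 3.66 ± 0.50), and Zfp12 of the same class from 7.98 and 29.0 to 194 and 170 (log2 3.30 ± 0.52). Tmem115, a Golgi membrane protein, had more reads behind it, with 14.6 and 9.33 CPM in the inputs and 113 and 107 in the IPs (log2 3.20 ± 0.32). Tmem246 reached a log2 fold change of 3.13. The other 3 of the 10 largest rises overlap a neighbouring gene with reads, so that part of their counts may belong to it: the nuclear receptor gene Nr2f6 (4.29, overlapping Ocel1), Urgcp (3.88, overlapping Mrps24) and the apoptosis gene Bid (3.09, overlapping Bcl2l13). Rab43 overlaps the predicted gene Gm45140.

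The largest falls were of mitochondrially encoded mRNAs and of a few short or little-recovered nuclear ones. Acyp2, an acylphosphatase gene (chr11:30505991-30649587, minus strand), had 137 and 138 counts in the inputs and 0 in both IPs. Against a floor of 3 counts per library it was at least 53.6-fold lower. Fam177a had 133 and 112 counts and also 0 in both IPs, at least 47.8-fold lower, and 1700047I17Rik2, with the same coding and 3′ UTR lengths, had nearly the same counts (132 and 115, and 0 in both IPs), so that reads may be split between them. Its call did not hold without input replicate 1 (adjusted p = 0.058) or input replicate 2 (0.064). The other 8 of the 10 largest falls were mitochondrial. mt-Nd2, a subunit of respiratory complex I, went from 10387 and 12542 normalised CPM in the inputs to 47.6 and 51.7 in the IPs (log2 fold change −7.85 ± 0.37, edgeR adjusted p = 4.45e-05). mt-Co2 of cytochrome oxidase went from 9751 and 16578 to 149 and 138 (log2 −6.52 ± 0.41). The IP replicates of both genes lay close together, far under either input. mt-Atp6 was uneven, with 2 counts in IP replicate 1 and 184 in IP replicate 2, and its call did not hold without input replicate 1 (adjusted p = 0.074) or 2 (0.0752). All 13 measured mitochondrial mRNAs fell, with a median log2 fold change of −6.88.

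**Figure D1:**
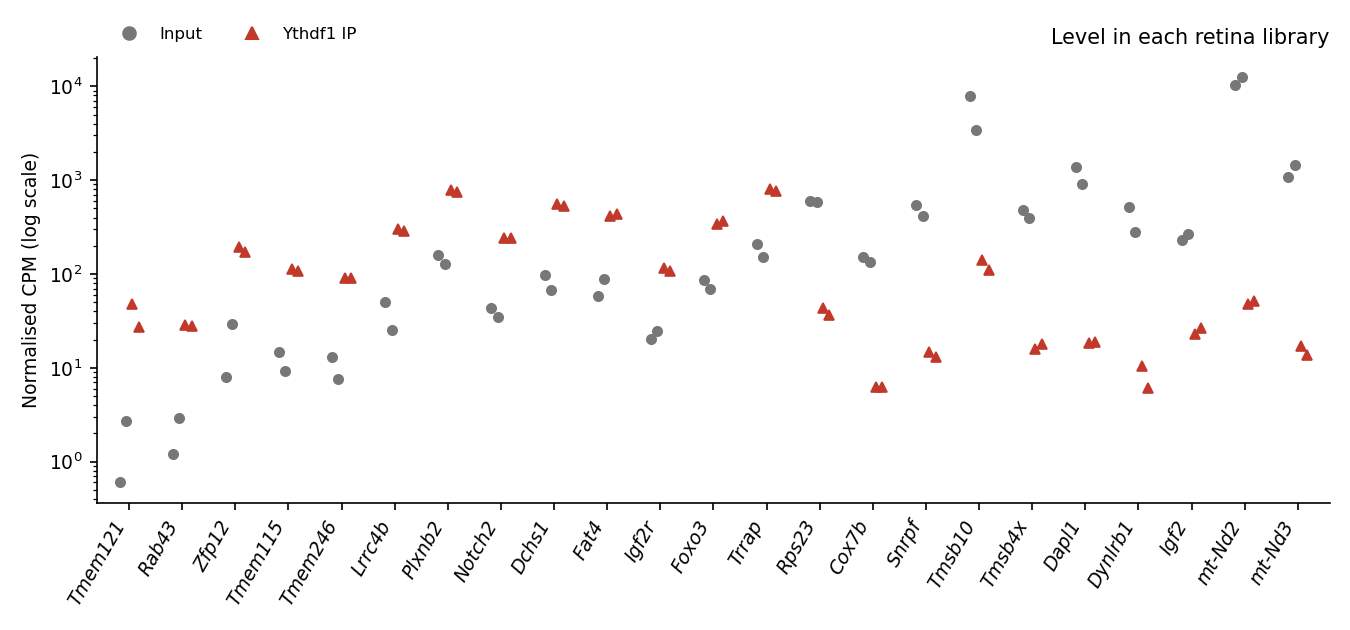
Normalised CPM (log axis) of 23 named genes in the input libraries (grey circles) and the Ythdf1 IPs (red triangles), with 1 point per library. The genes were picked among those called, and nearly all called genes have both IPs on 1 side of both inputs. The separation seen is therefore no added support. Tmem121 rises from 0.598 and 2.72 to 48.3 and 26.9, and mt-Nd2 falls from 10387 and 12542 to 47.6 and 51.7.

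Transcripts of small, abundant housekeeping proteins were depleted as groups. Of 82 cytosolic ribosomal protein genes, 77 fell and 0 rose, with a median log2 fold change of −2.71 beside −0.18 for all genes. Their summed level was 58557 and 43715 normalised CPM in the inputs and 9031 and 8337 in the IPs. Rps13 of the small subunit (589 nucleotides) went from 498 and 417 CPM to 30.6 and 28.6 (log2 −3.95 ± 0.31, edgeR adjusted p = 0.00014). Ribosomal protein genes have many processed pseudogenes, which can take part of their reads, and 272 of 488 processed pseudogenes measured here fell as well.

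The respiratory chain showed the same direction. Of nuclear subunits of complex I, 38 of 46 fell and 0 rose (median −2.12), and of complexes II to V, 33 of 42 fell and 1 rose (median −2.37). Cox7b, a subunit of cytochrome oxidase, went from 151 and 133 CPM to 6.30 and 6.23 (log2 −4.50 ± 0.31). The exception was Sdha, the flavoprotein of succinate dehydrogenase, which rose from 59.6 and 71.9 to 133 and 151 (log2 1.11 ± 0.25, edgeR adjusted p = 0.0096), a call that did not hold without Ythdf1 IP replicate 1 (0.068) or 2 (0.10). Of mitochondrial ribosomal proteins 37 of 78 fell and 5 rose (median −1.18), with Mrpl42 at 196 and 246 CPM in the inputs and 10.1 in both IPs, and Mrps27 moving the other way from 11.2 and 6.41 to 39.0 and 35.7.

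Sm and LSm proteins, which form the rings around spliceosomal RNAs, were among the most depleted, with 19 of 23 lower and 1 higher (median −2.47). Snrpf, the SmF protein gene (861 nucleotides), went from 548 and 416 CPM to 14.9 and 13 (log2 −5.11 ± 0.31, edgeR adjusted p = 5.8e-05). The member that rose was Lsm10, a part of the U7 particle that processes histone mRNA. It had 7.78 and 6.03 CPM in the inputs and 19.2 and 24.9 in the IPs (log2 1.67 ± 0.47, edgeR adjusted p = 0.023), and its adjusted p was 0.081 and 0.15 without Ythdf1 IP replicate 1 and 2. Proteasome subunits had 22 of 36 lower and 1 higher (median −1.23). Core histone genes had 49 of 70 lower and 0 higher (median −1.41), and because many histone genes are near-identical copies, the value of a single one is uncertain. H3f3b, a histone variant gene outside the clusters, fell from 1199 and 1515 CPM to 228 and 196 (log2 −2.68 ± 0.27).

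Of 40 translation factors 23 fell and 3 rose, with a median of −1.39. Initiation and elongation factors stood on both sides: Eif3b had a log2 fold change of 0.94 (edgeR adjusted p = 0.029) and Eef1b2 of −2.44 (edgeR adjusted p = 0.0005). The call of Eif3b did not hold without Ythdf1 IP replicate 1 (adjusted p = 0.187) or 2 (0.117), or without Ythdf2 IP replicate 1 (0.0674) or 2 (0.0525). Eif3e, a subunit of initiation factor 3, went from 75 and 107 CPM to 7.84 and 8.43 (log2 −3.48 ± 0.38). Eef2, the elongation factor that moves the ribosome along the mRNA, was higher in the IP, at 2213 and 1243 CPM in the inputs and 5002 and 4837 in the IPs. Its log2 fold change was 1.51 ± 0.33 (edgeR adjusted p = 0.0077), with both IPs above both inputs, and its adjusted p was 0.066 and 0.058 without Ythdf1 IP replicate 1 and 2.

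Scaled by library totals, the counts turned to 29 higher and 10 lower for mitochondrial ribosomal proteins, 15 and 5 for translation factors, 11 and 5 for the proteasome and 18 and 11 for histones, while the medians of all 9 depleted groups stayed below that of all genes under every setting tried. Cytosolic ribosomal proteins then had 5 higher and 52 lower. Leaving out Ythdf1 IP replicate 1 or 2 left 24 and 25 complex I, 24 and 24 mitochondrial ribosomal, 15 and 13 translation factor, 11 and 13 proteasome and 28 and 30 histone genes called lower.

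Receptors and ligands that guide axons stood on the other side. Of 27 measured plexins, semaphorins and neuropilins, 18 rose and 0 fell, with a median log2 fold change of 1.47. Plexins are the semaphorin receptors, and all 8 measured plexin genes were called: Plxna1, Plxna2, Plxna3, Plxna4, Plxnb1, Plxnb2, Plxnc1 and Plxnd1, with log2 fold changes from 1.57 to 2.42. Plxnb2 (chr15:89155549-89180788, minus strand, a transcript of 6497 nucleotides) was at 158 and 127 CPM in the inputs and 781 and 743 in the IPs (log2 2.42 ± 0.25, edgeR adjusted p = 0.00033). Every IP value lay above every input value. Nrp1, the neuropilin that binds class 3 semaphorins, had a log2 fold change of 0.33 and was not called, while Nrp2 had 1.25. Of ephrins and Eph receptors 11 of 21 rose and 1 fell (median 0.95). Ephb3 went from 25.3 and 21 CPM to 94.4 and 82.8 (log2 1.93 ± 0.27). Efna3, a membrane-anchored ligand, was the member that fell, from 19.5 and 5.25 to 3.69 and 1.65, and its call was lost without input replicate 1 (adjusted p = 0.25) or without any other of the 6 libraries but input replicate 2. In the group of Slit, Robo, netrin, Dcc, Unc5 and draxin genes 5 of 16 rose and 0 fell (median 0.87), among them the netrin receptor Neo1 with 94.7 and 79.1 CPM against 240 and 238.

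Many large adhesion proteins rose. Protocadherins with the giant Fat, Dachsous and Celsr cadherins had 31 of 67 higher and 0 lower (median 1.77), and a family of leucine-rich repeat and neuroligin synaptic adhesion proteins 18 of 29 and 0 (median 1.59). Dchs1 and Fat4 are the 2 partners of a heterophilic bridge between cells. Dchs1 went from 97.5 and 67.3 CPM to 557 and 528 (log2 2.72 ± 0.28), and Fat4 from 58.4 and 88.6 to 419 and 441 (log2 2.55 ± 0.28). Lrrc4b, a postsynaptic adhesion protein, had the largest rise of its group, from 50.7 and 25.1 CPM to 304 and 285 (log2 2.96 ± 0.36, edgeR adjusted p = 0.00057). Its annotated transcript holds 0 GGACT. Lingo1 went from 65.0 and 38.1 to 258 and 257 (log2 2.32 ± 0.31). Clustered protocadherins share their constant exons, so that reads may be split between members.

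In signalling pathways members lay on both sides. In the Notch pathway 13 of 35 rose and 3 fell (median 0.85): the receptor Notch2 went from 43.1 and 34.8 CPM to 241 and 242 (log2 2.63 ± 0.26, edgeR adjusted p = 0.00024) and the ligand Dll4 from 32.9 and 23.5 to 104 and 115, while Psenen, the smallest subunit of gamma-secretase, went down from 40.3 and 29.2 to 9.38 and 6.41, a call lost without Ythdf1 IP replicate 2 (adjusted p = 0.0514). Hes1, a transcriptional effector, was at 170 and 107 in the inputs and 50.1 and 64.7 in the IPs, and its adjusted p was 0.135 and 0.0662 without Ythdf1 IP replicate 1 and 2. In the Wnt pathway 20 of 46 rose and 6 fell (median 0.90). The planar polarity receptor Celsr2 went from 188 and 140 CPM to 609 and 615, and Tcf7l2, which binds beta-catenin on DNA, from 73.6 and 91.0 to 11.1 and 20.2 (log2 −2.40 ± 0.35). Of insulin, Akt and mTOR genes 16 of 36 rose and 5 fell (median 0.81). Igf2r, the clearance receptor of Igf2, went from 20.3 and 24.9 CPM to 115 and 108 (log2 2.30 ± 0.27), and its ligand Igf2 from 228 and 270 to 22.7 and 26.6 (log2 −3.34 ± 0.27). The ligand and its receptor thus stood on opposite sides, with no overlap between groups for either.

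DNA-binding and chromatin proteins leaned upward. Of 329 Zfp zinc finger genes 82 rose and 24 fell (median 0.45), of 40 BTB zinc finger genes 14 and 3 (median 0.79), and of 54 chromatin regulators 15 and 8 (median 0.30). The BTB genes were taken by symbol. Zbtb8os, which is not a BTB zinc finger gene, is therefore counted among those that fell. Zfp521 went from 39.3 and 46.8 CPM to 275 and 268 (log2 2.65 ± 0.25, edgeR adjusted p = 0.00021). Trrap, the scaffold of histone acetyltransferase complexes, went from 211 and 151 to 807 and 760, and Ezh2, the H3K27 methyltransferase, moved down from 110 and 144 to 37.4 and 46.0, a call that was lost without Ythdf1 IP replicate 1 (adjusted p = 0.057). The split of the Zfp genes depended on the input: 98 rose and 64 fell without input replicate 1, and 143 and 21 without input replicate 2.

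Each of these counts of higher genes was smaller with 1 IP. Without Ythdf1 IP replicate 1 and replicate 2 they were 9 and 11 for plexins, semaphorins and neuropilins, 4 and 4 for ephrins and Eph receptors, 1 and 2 for the Slit and netrin group, 14 and 16 for the cadherin group, 10 and 11 for leucine-rich repeat proteins, 6 and 4 for Notch, 11 and 10 for Wnt, 7 and 6 for insulin and mTOR, 27 and 28 for Zfp, 9 and 7 for BTB and 3 and 3 for chromatin genes. The medians of all 11 groups stayed above that of all genes under every setting tried. In the groups printed with 0 genes higher or 0 lower by edgeR, none was past an unadjusted p of 0.05 in that direction, and DESeq2 and limma also called 0.

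**Figure D2:**
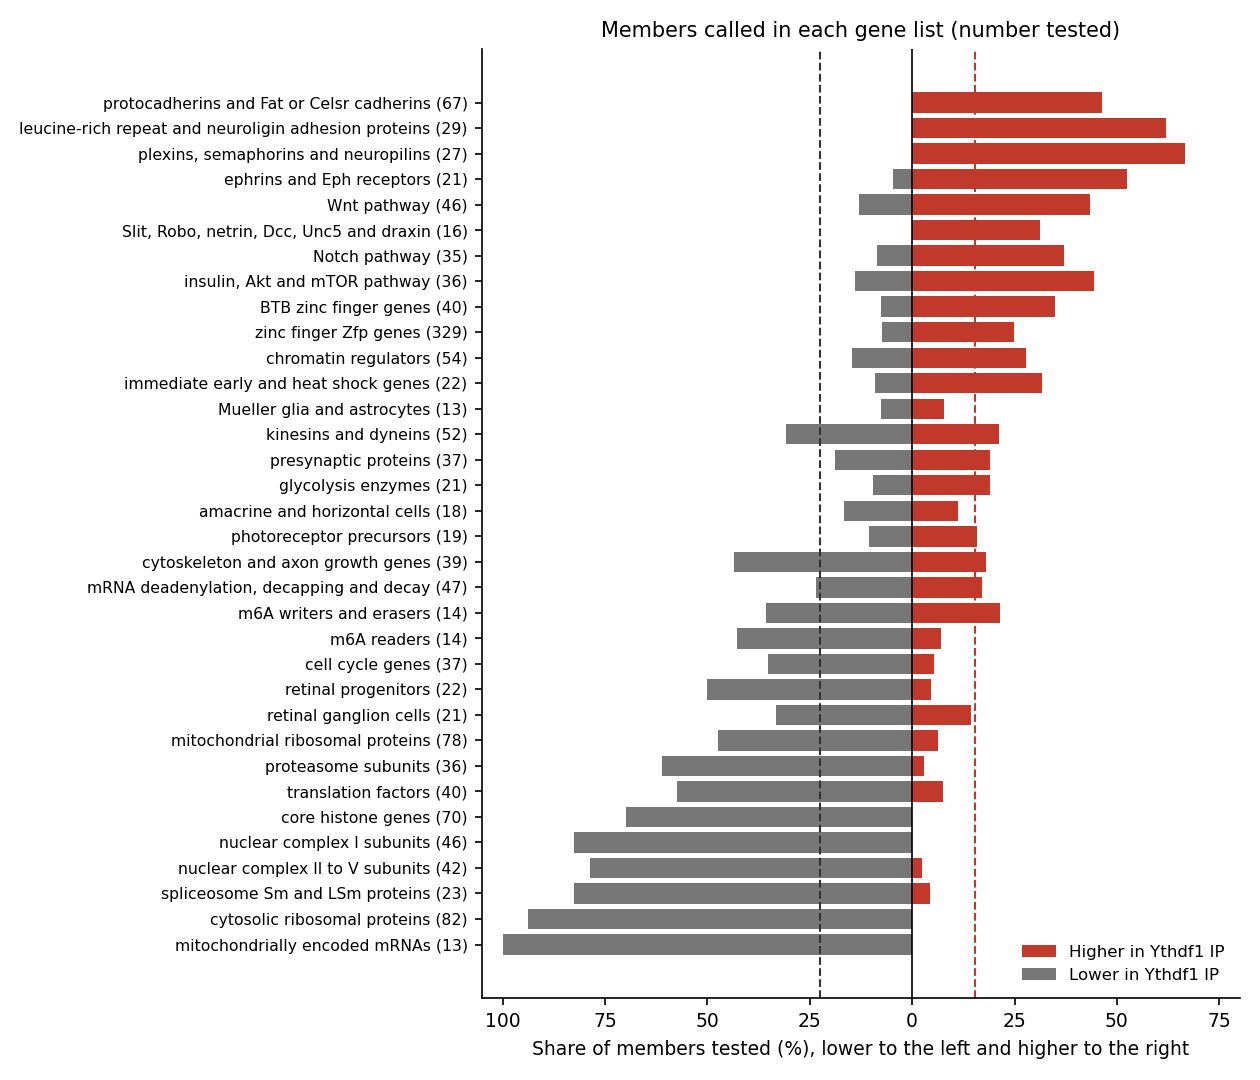
Share of the measured members of each gene group called lower (grey, to the left) and higher (red, to the right) in the Ythdf1 IP, in percent, with the number measured in brackets. Dashed lines mark the shares over all 14334 genes, 22.4% lower and 15.4% higher: 77 of 82 cytosolic ribosomal protein genes reach far past the first, and 18 of 27 plexins, semaphorins and neuropilins far past the second.

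Motor, synaptic and cytoskeletal groups were mixed. Kinesins and dyneins had 11 of 52 higher and 16 lower (median 0.09). Dync1h1, the heavy chain that carries the motor activity of cytoplasmic dynein, went from 198 and 176 CPM to 880 and 809 (log2 2.18 ± 0.25), and Dynlrb1, one of its light chains, from 521 and 280 to 10.5 and 6.05 (log2 −5.59 ± 0.44, edgeR adjusted p = 0.00014). Subunits of 1 motor complex thus stood at opposite ends. Presynaptic genes had 7 of 37 higher and 7 lower (median −0.01), with the active zone scaffold Bsn at 79.0 and 52.1 CPM against 273 and 246, and the vesicle SNARE Vamp2 at 349 and 228 against 34.7 and 34.4. Cytoskeleton and axon growth genes had 7 of 39 higher and 17 lower (median −0.29): the spectrin Sptan1 went from 178 and 228 CPM to 885 and 797, and Tmsb10, a small protein that binds actin monomers, from 7938 and 3452 to 140 and 110 (log2 −5.51 ± 0.46). Of mRNA decay genes 8 of 47 rose and 11 fell (median −0.30), and of cell cycle genes 2 of 37 and 13 (median −0.70). Of immediate early and heat shock genes 7 of 22 rose and 2 fell (median 0.19), and of 21 glycolysis entries 4 and 2 (median −0.02). Over all genes tested 15.4% were higher and 22.4% lower. The mRNA decay genes (17.0% and 23.4%) and the presynaptic genes (18.9% and 18.9%) lay near these shares. Scaled by library totals the splits turned to 31 higher and 7 lower for kinesins and dyneins, 24 and 1 for presynaptic, 22 and 5 for cytoskeleton, 30 and 2 for decay and 21 and 2 for cell cycle genes.

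The coding sequence of Tmsb10 shows how short the most depleted messages can be. It is printed whole from GRCm38 (135 bases, in more than 1 exon within chr6:72957618-72958012, minus strand), with the start and stop codons in capitals.
Tmsb10: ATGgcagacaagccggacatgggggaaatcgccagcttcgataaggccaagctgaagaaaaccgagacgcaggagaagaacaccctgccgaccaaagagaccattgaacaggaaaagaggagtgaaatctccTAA

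Markers of the retinal cell types did not move together. Of 22 progenitor markers 11 fell and 1 rose (median −0.71). Dapl1 went from 1386 and 910 CPM to 18.3 and 18.9 (log2 −5.95 ± 0.35), Fabp7 from 95.5 and 226 to 17.1 and 20.7, and the proneural factor Neurog2 rose from 74.0 and 58.7 to 139 and 141. The eye-field factor Rax, with a log2 fold change of 0.21, was not called. Of 21 ganglion cell markers 7 fell and 3 rose (median −0.73). Sncg, gamma-synuclein, went from 152 and 91.2 CPM to 11.7 and 16.9 (log2 −3.09 ± 0.36), and Tubb3, the neuronal beta-tubulin, from 275 and 170 to 567 and 564 (log2 1.35 ± 0.29). The ganglion cell factors Pou4f2, Isl1 and Atoh7 had −0.73, −0.86 and 0.23 and were not called. Without Ythdf1 IP replicate 1 and 2 the adjusted p was 0.089 and 0.089 for Neurog2 and 0.063 and 0.058 for Tubb3, and 3 and 4 progenitor and 3 and 4 ganglion cell markers fell. With library totals 12 progenitor markers were higher and 3 lower, and 9 and 1 of the ganglion cell markers.

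Of 19 measured photoreceptor markers 3 rose (15.8%) and 2 fell (10.5%), with a median of −0.24. Over all genes tested the shares were 15.4% and 22.4%. Arr3 and Opn1mw were at 0 in all 6 libraries. Prph2, a disc rim protein, went from 43.3 and 28.2 CPM to 123 and 113 (log2 1.73 ± 0.30), Gngt2, the cone transducin gamma subunit, from 414 and 262 to 73.8 and 57.9 (log2 −2.36 ± 0.33). The master regulators Crx, Otx2 and Nrl, at −0.33, −0.17 and −0.67, were not called. Amacrine and horizontal cell markers had 2 of 18 higher and 3 lower (11.1% and 16.7%), and glial markers 1 and 1 of 13. Of 6 bipolar markers edgeR called 0 higher and 0 lower, with 1 lower at an unadjusted p under 0.05. DESeq2 called 0 of them and limma 1 lower. Of endothelial markers 4 passed the filter and 2 rose, Kdr from 199 and 202 CPM to 708 and 717 and Cldn5 from 20.1 and 11.1 to 44.1 and 38.5. Cldn5 was not called without Ythdf1 IP replicate 1 (adjusted p = 0.116) or 2 (0.0754). The other 2, Flt1 and Egfl7, had −1.47 and −1.44 and were not called, and the median of the 4 was −0.02. Their summed level was 229 and 217 in the inputs and 755 and 758 in the IPs, most of it from Kdr. The part of such cells in the results was not tested.

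Among transcripts of the m6A machinery more members were lower than higher with TMM scaling, and more were higher with library totals (8 higher and 1 lower of the readers, 8 and 0 of the writers and erasers). Of 14 readers and other m6A binders 6 fell (42.9%) and 1 rose (7.14%), with a median of −0.47. Of 14 writers, their cofactors and erasers 5 fell (35.7%) and 3 rose (21.4%), with a median of −0.42. Over all genes tested 22.4% were lower and 15.4% higher. More lower than higher was thus the split of all genes too, and with library totals more of all genes were higher as well. Ythdf1 mRNA itself was at 70.8 and 55.8 CPM in the inputs and 100.2 and 109.9 in the IPs (log2 0.73 ± 0.26, edgeR adjusted p = 0.052), just outside the threshold with no overlap between groups. Its log2 fold change was 0.91 without input replicate 1 and 0.57 without input replicate 2, and it passed the threshold in both fits. Leaving out either input raised the number of calls over all genes in both directions, so this is no added support. Ythdf2 had a log2 fold change of 0.87 ± 0.40 (adjusted p = 0.12) and Ythdf3 of 0.22 ± 0.52 (adjusted p = 0.76). For these 2 the inputs disagreed, at 24.7 and 61.6 CPM for Ythdf2 and 20.1 and 80.1 for Ythdf3. Without input replicate 2 Ythdf3 had a log2 fold change of 1.53, and without input replicate 1 of −0.46.

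Hnrnpa2b1, a nuclear RNA-binding protein proposed as an m6A reader, fell from 705 and 1561 CPM to 94.4 and 99.0 (log2 −3.55 ± 0.40, edgeR adjusted p = 0.00042), and Hnrnpc from 185 and 145 to 41.8 and 38.5 (log2 −2.04 ± 0.27). Igf2bp2 had −1.65, while Igf2bp1 and Igf2bp3, at 0.41 and −0.24, were not called. Fmr1, Eif3a and the nuclear reader Ythdc1 had −2.30, −2.28 and −1.70, but input replicate 2 held more of each than replicate 1, such as 79.9 against 16.2 CPM for Fmr1, and none of the 3 genes was called without Ythdf1 IP replicate 1 (adjusted p = 0.11, 0.11 and 0.12) or 2 (0.097, 0.089 and 0.11). Prrc2a was the reader that rose, from 492 and 289 to 1038 and 1061 (log2 1.43 ± 0.31). Among the writers the catalytic subunit Mettl3 had −0.14 ± 0.33 (edgeR adjusted p = 0.76) and its partner Mettl14 −2.41 ± 0.49 (edgeR adjusted p = 0.0057). Mettl3 overlaps Tox4. The adaptor genes Rbm15b and Rbm15 had 1.82 and 1.32. Of the 2 demethylases Alkbh5 had 1.02 ± 0.26 (edgeR adjusted p = 0.014) and Fto 0.22 ± 0.32 (edgeR adjusted p = 0.61). Beside Mettl14, the members of this list called lower were Trmt112 (−1.89, overlapping Prdx5 and Esrra), Mettl5, Zc3h13 and Zcchc4. The shares given for writers, cofactors and erasers are of the whole list, which is wider than the complex of Mettl3 and Mettl14. Without Ythdf1 IP replicate 1 the calls of Prrc2a, Mettl14, Rbm15, Igf2bp2 and Alkbh5 were lost, at 1.44, −1.93, 1.36, −1.55 and 0.98. Those of Mettl5, Zc3h13 and Zcchc4 were lost as well. Without replicate 2 the calls of Prrc2a, Rbm15 and Alkbh5 were again lost, at 1.41, 1.27 and 1.07. So were those of Zc3h13, Zcchc4 and Trmt112.

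The features of the transcripts moved with the recovery across the whole set of 12413 nuclear protein-coding genes. Genes called higher had a median transcript of 4325 nucleotides with a coding sequence of 2244, and genes called lower 2047 and 771, beside 3154 and 1416 for all. The 3′ UTR differed less, with medians of 1351, 797.5 and 1099. Median GC content was 53.7% for the higher, 47.2% for the lower and 50.6% for all. In the decile of genes with the shortest transcripts (243 to 1293 nucleotides) 29 of 1242 were higher and 705 lower, with a median log2 fold change of −1.69. In the decile with the longest (6745 nucleotides and more) 396 were higher and 99 lower, with a median of 0.55. By coding length the medians ran from −1.71 to 0.82, and by GC content from −1.36 to 0.56. Length and GC content added up: short transcripts of low GC content (265 genes) had a median of −2.58, and long ones of high GC content (235 genes) of 1.16. Genes are not independent replicates, so these values are a description with no test.

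**Figure D3:**
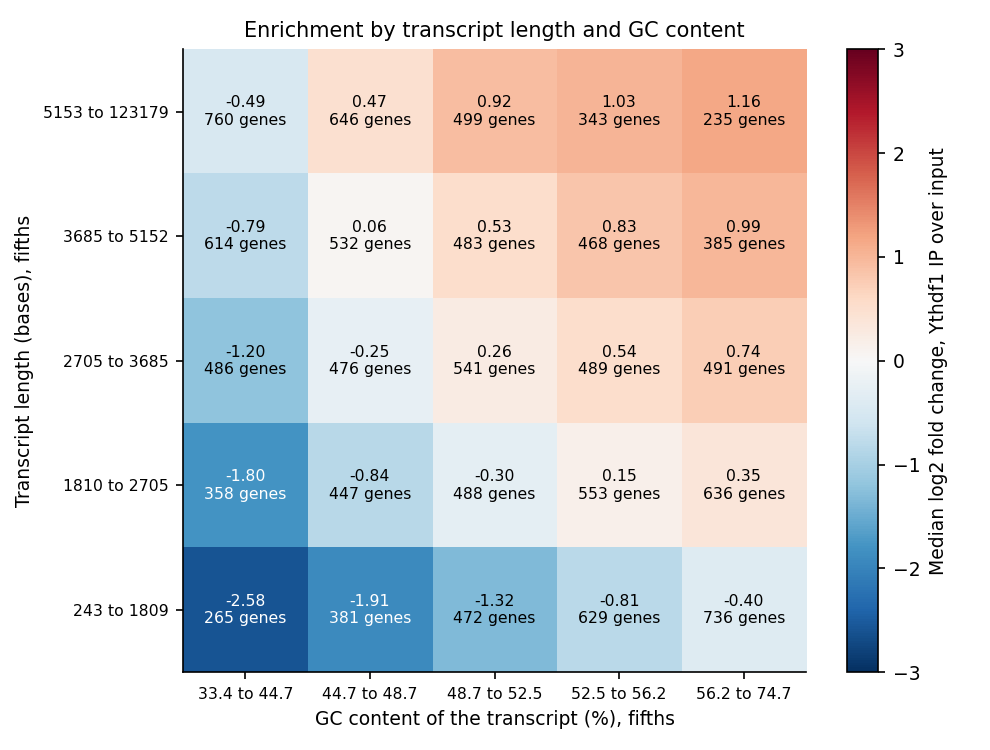
Median log2 fold change of the Ythdf1 IP over input in a grid of 5 classes of transcript length by 5 classes of GC content, for 12413 nuclear protein-coding genes. The shortest class with the lowest GC content lies at −2.58 and the longest with the highest GC content at 1.16.

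The m6A-type motif followed the same order with a turn at its upper end. GGACT was found in 98.4% of the transcripts called higher, 82.2% of those called lower and 94.4% of those not called, with 5, 2 and 3 copies in the median transcript. Longer transcripts hold more copies of any motif. Per kilobase the medians were 1.19, 0.90 and 1.05. By motif density the median log2 fold change was −0.99 in the lowest decile, 0.33 in the eighth and 0.03 in the highest. Within the longest quintile of transcripts it ran from −0.19 in the lowest quintile of motif density (342 genes) to 0.96 in the highest (216 genes), and within the shortest quintile from −1.76 (591 genes) to −0.85 (786 genes). Within classes of GC content the trend was not the same throughout. In the lowest GC quintile the median was −1.25 at the lowest motif density (747 genes), −0.83 in the middle and −1.29 at the highest (202 genes), and in the next GC quintile it was −0.55, −0.03 and −0.62. In the highest GC quintile it went from −0.15 (422 genes) to 0.53 (750 genes).

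How steep the GC trend is depends on which input serves as the reference. Over input replicate 1 alone, the median log2 ratio of the IPs ran from −0.39 in the lowest decile of GC content to 0.36 in the highest, and over input replicate 2 alone from −1.71 to 0.84. The difference of input replicate 1 from replicate 2 itself ran from −1.28 to 0.54, while that between the 2 Ythdf1 IPs ran from −0.14 to 0.08. For transcript length the order was the other way round. Over input replicate 1 the medians rose from −1.79 in the shortest decile to 0.97 in the longest, and over input replicate 2 from −1.35 to a highest value of 0.38 in the eighth decile, with 0.27 in the longest. Short transcripts were thus low in the IPs over either input, and low GC content went with low recovery over both but to a very different degree. The part of fragmentation, amplification or RNA quality in the difference between the inputs was not tested.

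**Figure D4:**
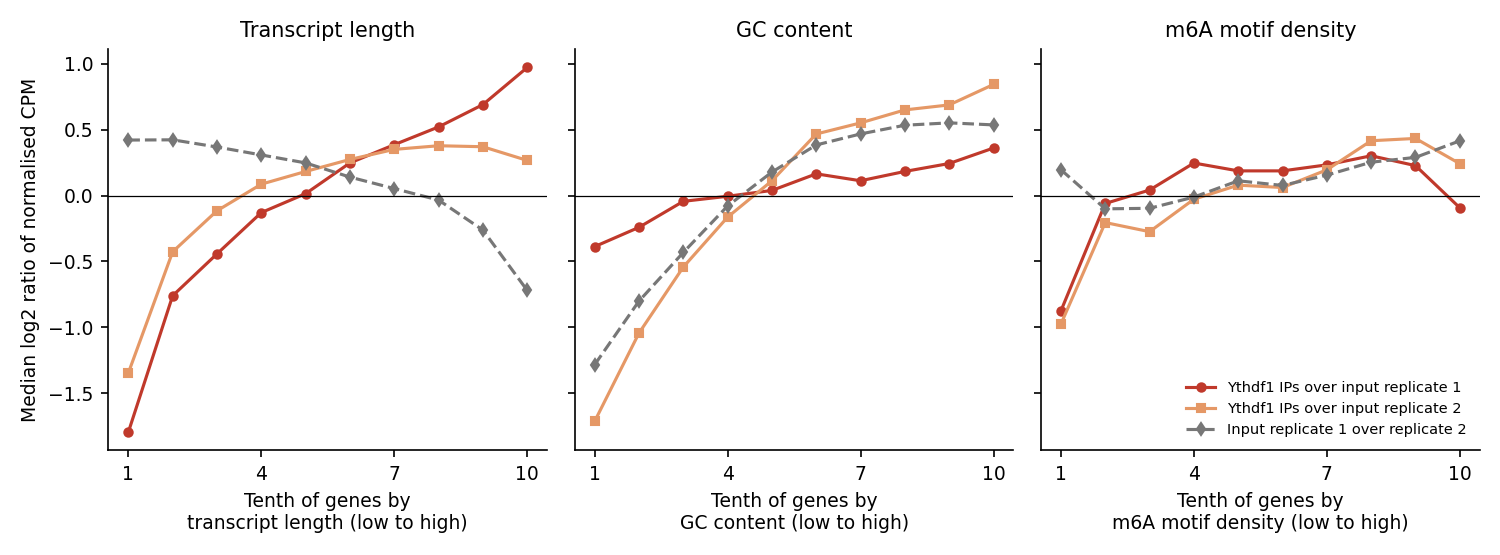
Median log2 ratio of the Ythdf1 IPs over each single input (solid lines), and of input replicate 1 over replicate 2 (dashed), across deciles of genes by transcript length, GC content and GGACT per kilobase. Over input replicate 2 the GC line runs from −1.71 to 0.84, and over input replicate 1 from −0.39 to 0.36.

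Length alone did not order single genes. Lsm10 rose with a transcript of 943 nucleotides. Among long transcripts of the lowest GC quintile, where the median was −0.49 (760 genes), Zfp945 (5683 nucleotides, 35.5% GC) fell from 26.9 and 39.5 CPM to 6.76 and 3.30 (log2 −2.70 ± 0.45), and Dnaja1, an Hsp40 co-chaperone with 5622 nucleotides and 41.2% GC, from 65.4 and 206 to 18 and 16.5 (log2 −2.97 ± 0.49). Dnajb1, another Hsp40, rose from 81.6 and 50.7 to 234 and 256 (log2 1.89 ± 0.30). Genes abundant in the input were lower in the IP on the whole: the medians by decile of input level ran from 0.71 at the lowest to −0.95 at the highest, a direction that is in part built in, since the input is the denominator.

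The transcripts with the highest level per length in the Ythdf1 IP were not those with the largest rises. On the deposited FPKM scale, Eef1a1, the elongation factor that brings aminoacyl-tRNA to the ribosome, was at 395 and 384 in the IPs and at 479 and 410 in the inputs, and was not called (log2 −0.45 ± 0.28, edgeR adjusted p = 0.24), except without input replicate 2 (log2 −0.64, adjusted p = 0.0151). Eef2 was at 232 and 222 FPKM in the IPs against 80.6 and 51.1. The polyubiquitin gene Ubb was at 218 and 211 against 181 and 148 and was not called, with a log2 fold change of 0.12, 0.37 without input replicate 1 (adjusted p = 0.0407) and −0.10 without input replicate 2. Tubb2b, a beta-tubulin of newborn neurons, was at 117 and 118 against 37.2 and 31.6 and rose (log2 1.51 ± 0.26, edgeR adjusted p = 0.0027), though tubulin genes have close paralogs that can share reads. The other 6 of the 10 highest were clustered histone genes.

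The antibody against Ythdf2 gave fewer calls over the same inputs. Its IPs kept fewer counts in the genes tested, 2606597 and 2644403 against 4458877 and 3755314 for Ythdf1. Their replicates also lay further apart, with a standard deviation of the log2 difference of 0.72 against 0.58. The part of depth and spread in the number of calls was not tested. In the Ythdf2 IP 1073 genes (7.49%) were higher and 1706 (11.9%) lower than in the input. Because both enrichments use the same 2 inputs, they are set side by side without a test. Cytosolic ribosomal proteins had 0 higher and 77 lower with either antibody, with medians of −2.71 for Ythdf1 and −2.60 for Ythdf2, and mitochondrial mRNAs −6.88 and −5.36. Leucine-rich repeat adhesion genes had 18 higher with Ythdf1 and 3 with Ythdf2 (medians 1.59 and 0.57), and the cadherin group 31 and 13 (1.77 and 0.94). Other groups were closer between the antibodies. Plexins, semaphorins and neuropilins had 18 and 13 higher (1.47 and 0.99), and insulin, Akt and mTOR genes 16 and 13 (0.81 and 0.83). The GC trend over input ran from −1.36 to 0.56 with Ythdf1 and from −0.22 to 0.11 with Ythdf2. The length trend was similar, from −1.69 in the shortest decile of transcripts to 0.55 in the longest with Ythdf1. With Ythdf2 it ran from −1.53 to 0.59.

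The direct test of the 2 antibodies does not involve the inputs in its contrast, and found 380 genes (2.65%) higher with the Ythdf1 antibody and 932 (6.5%) lower. Rab43 had the largest rise by the naming rule, with 28.3 and 27.7 CPM in the Ythdf1 IPs against 2.39 and 1.67 in those of Ythdf2 (log2 3.77, edgeR adjusted p = 0.0056). In the inputs it was at 1.20 and 2.92, so that it stood above input with the Ythdf1 antibody and within the range of the inputs with the other. Tmem121 had 2.82 and Pars2, a mitochondrial prolyl-tRNA synthetase, 2.61. Btbd6 (3.07, overlapping Brf1) and Ninj1 (2.53) were the other 2 named by size. Of leucine-rich repeat adhesion genes 9 were higher and 0 lower with Ythdf1.

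On the other side, the largest falls in the Ythdf1 IP were of Selenot, Pkib, Dynlt3, Cisd2 and Tvp23b. Selenot, a selenoprotein of the endoplasmic reticulum, was at 11.2 and 13.7 CPM in the Ythdf1 IPs, 31.5 and 123 in the inputs and 335 and 297 in the Ythdf2 IPs (log2 of Ythdf1 over Ythdf2 −4.66, edgeR adjusted p = 0.0042). Dynlt3, a dynein light chain, was at 1.38 and 1.10 in the Ythdf1 IPs, 15.0 and 39.8 in the inputs and 25.7 and 25.6 in the Ythdf2 IPs (log2 −4.33, edgeR adjusted p = 0.0047). Pkib, an inhibitor of protein kinase A, had −4.37, Cisd2, an iron-sulphur protein, −4.20 and Tvp23b, a Golgi protein, −4.18. Vamp2 also differed, with 34.7 and 34.4 CPM in the Ythdf1 IPs, 286 and 281 in the Ythdf2 IPs and 349 and 228 in the inputs (log2 −3.03, edgeR adjusted p = 0.0032). The lowest decile of GC content had 3 genes higher and 216 lower with Ythdf1 (median −0.97), and the highest decile 66 and 14 (median 0.46). All 10 calls between the antibodies named by size were lost without either Ythdf1 IP: there were 0 higher and 0 lower calls without replicate 1 and 0 and 3 without replicate 2, with 2155 and 2273 genes at an unadjusted p under 0.05 in the edgeR test. Without Ythdf2 IP replicate 1 there were 1 and 22 calls, without its replicate 2 there were 21 and 113, and without input replicate 1 or 2 there were 2176 and 2505 or 2211 and 2463.

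The first 90 bases of the coding sequences of Tmem121 (chr12:113188164-113188253, plus strand, 63.3% GC) and of Dynlt3 (within chrX:9657147-9662898, minus strand, 47.8% GC) set a gene from each side of the antibody comparison next to each other, from GRCm38 with the start codon in capitals. The whole Tmem121 transcript has 63.4% GC and that of Dynlt3 38.9%.
Tmem121: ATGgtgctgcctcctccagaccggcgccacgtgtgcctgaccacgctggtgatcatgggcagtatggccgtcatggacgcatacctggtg
Dynlt3: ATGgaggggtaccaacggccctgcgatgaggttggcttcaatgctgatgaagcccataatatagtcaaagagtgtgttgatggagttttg

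**Figure D5:**
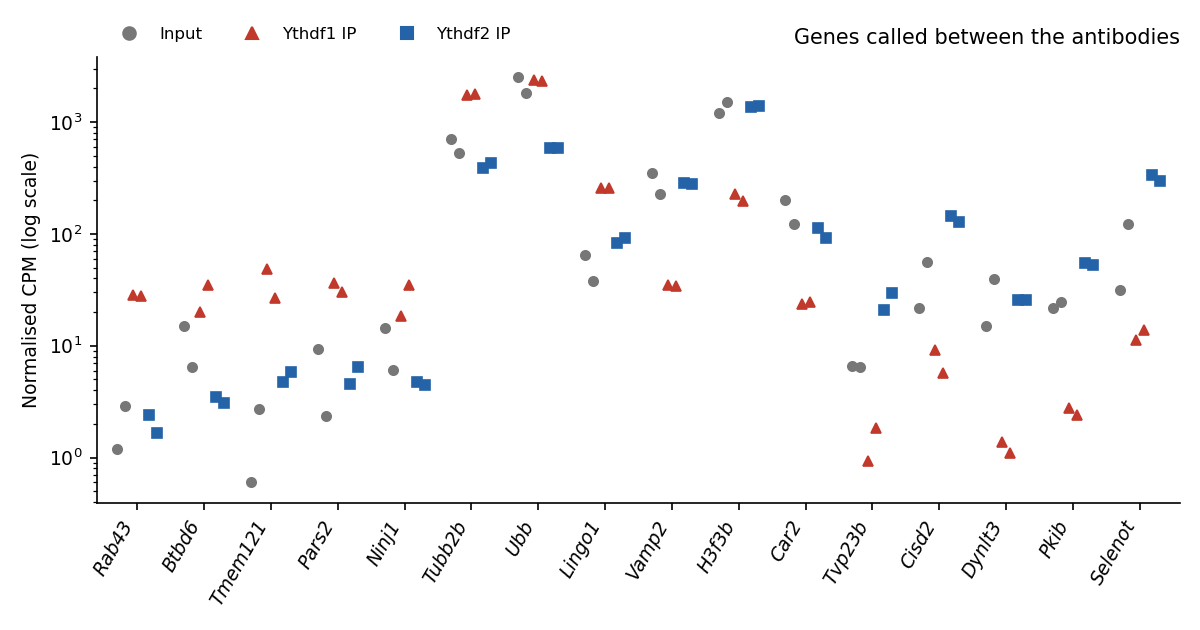
Normalised CPM (log axis) of 16 genes called between the antibodies, in the inputs (grey circles), Ythdf1 IPs (red triangles) and Ythdf2 IPs (blue squares), with 1 point per library. Rab43 stands out in the Ythdf1 IPs at 28.3 and 27.7, and Selenot in the Ythdf2 IPs at 335 and 297 against 11.2 and 13.7 in the Ythdf1 IPs.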

How the data were processed

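The authors deposited raw read counts per gene, 1 column per library, and FPKM values for the same libraries. STAR 2.5, HTSeq and build GRCm38 are named per the submitters' processing notes, while the annotation release, the strand setting and the gene length behind the deposited FPKM were not given in the sources used here. Without a stated strand setting, reads of overlapping genes cannot be told apart. Counts were the basis of every main test.

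Of 52550 genes in the table, 52403 matched to GENCODE M21. Genes of ribosomal RNA loci and mitochondrial rRNA (378) were left out, and genes with at least 10 counts in 2 or more of the 6 retina libraries were kept (14334). These libraries held 19530226 to 40515980 counts in all, and 3 counts, the floor for genes at 0, equal 0.461 to 0.835 normalised CPM. Floors cover counting error only, while the SE also takes in the spread between the libraries fitted. TMM-scaled counts were fitted with edgeR 4.0.16 (limma 3.58.1, R 4.3.3; robust quasi-likelihood, 1 mean per group, two-sided), and called at a Benjamini-Hochberg adjusted p under 0.05. DESeq2 1.42.0 and limma on log2(FPKM + 1), with a pseudocount of 1, were alternatives, beside other scalings, filters, sets of libraries and each library left out. Normalised CPM scales counts by library size times TMM factor. The SE is the size of the log2 fold change over the square root of F. In ratios over a single input 0.5 CPM was added. The scripts were tested on simulated data.

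The series' design text says that each replicate holds input and IP, which pairs same-numbered libraries. Correlations of their deviations were 0.112 (input with Ythdf1 IP), −0.034 and −0.0073.

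The members and lists were chosen with earlier results of these data known. The 10 largest rises and falls over input were named, and 5 each way between antibodies. These are protein-coding, called, non-overlapping between groups and at a mean of at least 10 CPM. For each list the 2 called risers and 2 called fallers of lowest p were named, with no limit on overlap or level. All m6A readers, writers and erasers were named whether called or not. So were the 10 protein-coding genes with the highest FPKM in the Ythdf1 IPs. Only part of the genes named by these rules is printed here, while counts of named genes cover all of them. Other members, and the non-coding RNAs in the closing section, were named after their values were seen. Overlapping genes with at least 50 counts were recorded.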

Additional observations from a re-analysis of the deposited data

Results flagged for a closer look

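Reads on ribosomal RNA loci lie outside the comparison, because those genes were left out before the fit. They took 88.6% of all counts in Ythdf1 IP replicate 1 and 88.5% in replicate 2, above the 55.8% and 55.3% of the 2 inputs, while mitochondrial ribosomal RNA fell from 17.3% and 16.7% of the inputs to 0.377% and 0.408%. Nuclear protein-coding genes took a similar share in all 4 libraries, 9.01% and 8.92% in the inputs and 9.46% and 9.44% in the Ythdf1 IPs.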

How the results depend on the processing

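The count of genes higher and lower in the Ythdf1 IP than in the input moved with the scaling and the libraries fitted. It was 7538 and 844 with library totals and 910 and 1232 with all 12 libraries, and ran from 748 to 3295 higher and from 1454 to 3876 lower with 1 library left out. With the replicate number as a block it was 2183 and 3061, against 367 and 996 between the antibodies, and the block changed no call of the 156 named genes called against input. Between the antibodies, 602 were higher with no filter, 675 with limma on FPKM and 755 with DESeq2. The fit on 4 libraries gave 2308 higher and 2523 lower, the fit on all 12 libraries gave 0 and 0 (2019 at an unadjusted p under 0.05), and leaving out 1 library gave 0 to 2211 higher and 0 to 2505 lower. Of the 156 named genes, 79 were called under every alternative that tested them, and Zcchc4, Efna3 and Ldhb were lost most often (11, 9 and 10 settings). The causes were not tested.

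With library totals the log2 fold change changed sign for Hes1 (0.31), Zbtb8os (0.084), Zbtb7a (0.32), Ldhb (0.68), Egr1 (0.37), Nr2e3 (0.10), Igf2bp3 (1.31), Elavl1 (0.86), Wtap (1.28), Mettl16 (0.79), Zcchc4 (0.22), Mettl3 (1.42), Cbll1 (1.00), Eef1a1 (1.13), Hist1h2bn (0.88), Hist1h2ak (0.13), Hist1h2ab (0.36) and Hist1h2bg (0.84). Mettl3, near 0 at −0.14, was also above 0 with no filter (0.016), 4 libraries (0.050), 12 libraries (0.071), limma (0.034), and without input replicate 2 (0.043) or Ythdf1 IP replicate 2 (0.053). Igf2bp3 had 0.0025 with limma. With 1 library left out the values ran from −0.68 to 0.38 for Igf2bp3, from −0.61 to 0.14 for Wtap, from −0.15 to 0.71 for Fto, from −0.46 to 1.53 for Ythdf3 and from −0.37 to 0.053 for Mettl3, with Ubb at −0.098 without input replicate 2 and Ythdc2 at −0.25 and −0.13 without input replicate 1 and Ythdf1 IP replicate 2. Relative to all genes, the median of the mRNA decay list was 0.036 with no filter and ran from −0.12 to 0.19 with 1 library left out. That of the amacrine and horizontal markers was −0.061 with filterByExpr, −0.13 at 50 counts and ran from −0.14 to 0.018 with 1 library left out, and that of the bipolar markers was 0.044 at 50 counts.

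Depth limits the scarce genes: 406 of the genes called lower had under 10 counts in both IPs, and 70 of those called higher had under 10 in both inputs.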

Other observations

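Non-coding RNAs, named here after their values were seen, included several abundant ones that were lower in the Ythdf1 IP. The small nuclear RNA Rn7sk, which holds the elongation factor P-TEFb inactive, had 2272954 and 2025853 counts in the inputs and 159799 and 126396 in the IPs (log2 fold change −4.15, edgeR adjusted p = 0.00032). Rn7s1, an RNA of the signal recognition particle whose near-identical copy Rn7s2 can share its reads, had −4.87, and the RNA subunits of RNase MRP and RNase P, Rmrp and Rpph1, had −4.10 and −4.57. Every IP count of these 4 RNAs lay far under both inputs. Scarna10, a guide RNA of Cajal bodies, was on the other side, with 6966 and 7395 counts in the inputs and 20265 and 18868 in the IPs (log2 1.22, edgeR adjusted p = 0.013). By class, 36.9% of 84 snRNA genes fell, 47% of 100 snoRNA genes fell and 7% rose, and 26.3% of 278 lincRNA genes fell and 2.88% rose, beside 22.4% and 15.4% over all genes. The share of lincRNA genes that fell is thus near that over all genes.

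The long non-coding RNAs named here were lower too, with a wide spread between the inputs for 1 of them. Malat1, a nuclear speckle RNA, had 11997 and 96877 counts in the inputs and 8596 and 8658 in the IPs (log2 −2.87, edgeR adjusted p = 0.018), so that its fold change differs greatly with the input. The imprinted RNA H19 had 1368 and 1123 counts against 143 and 88 (log2 −3.68, edgeR adjusted p = 0.00014), and it was also lower than in the Ythdf2 IPs, with 477 and 431 counts (log2 −2.69, edgeR adjusted p = 0.0033). Meg3, another imprinted RNA, had 1029 and 2212 counts against 476 and 375 (log2 −2.16), and −1.84 against the Ythdf2 IPs.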
